A study of Mus musculus with 6 samples.

Results

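Genes of redox defence, of the NRF2 response and of the pentose phosphate pathway were followed in AtT-20 cells with induced PAM-1. They were chosen as a list of 43 antioxidant, aldehyde and steroid oxidoreductase and pentose phosphate genes, and all array probes that the platform annotation assigns to them were taken. Of the 43 genes, 38 had a probe, with 72 probes among the 45281 on the array. A probe entered the tests when 3 or more of the 6 arrays gave it a detection p, the software's test of signal against negative control beads, under 0.01, and 49 of the 72 probes from 32 genes did so, out of 9196 genes on the whole array. Where a gene had several tested probes, the brightest over the 6 arrays stands for it, and the differences on its other tested probes are given beside it.

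NRF2, the product of Nfe2l2, is a transcription factor that KEAP1 marks for degradation in unstressed cells. Oxidants and electrophiles modify KEAP1, and NRF2 then switches on genes for glutathione and thioredoxin enzymes, quinone and heme breakdown and NADPH supply by binding antioxidant response elements. The pentose phosphate pathway supplies part of the NADPH that the glutathione and thioredoxin systems spend, and it also makes ribose for nucleotides.

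AtT-20 is a line of mouse pituitary corticotrope tumour cells, and the cells used here carried a rat PAM-1 transgene under a promoter that doxycycline switches on. PAM-1 is a membrane-bound form of peptidylglycine alpha-amidating monooxygenase, which needs copper and finishes peptide hormones in secretory granules. Doxycycline medium or control medium was given for 48 h to each of the stable clones 14, 6_1 and 6_2, with 1 array per clone and medium, so that 3 doxycycline and 3 control arrays resulted. Cells in both groups carried the transgene, and doxycycline was given as 4 µg/ml in one label and 4 mg/ml in another. Cells lacking the transgene were not analysed here in doxycycline medium, so the drug and PAM-1 cannot be told apart. Whether clones 6_1 and 6_2 arose separately is not stated in the labels. With 1 culture per clone and medium, the p-values rest on how much the medium difference varied between these clones. They also rest on a variance drawn from all tested probes.

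Values are log2 intensities after background correction and quantile normalisation. Between 16196 and 17149 probes per array were above background. One array, clone 6_1 in control medium, lay away from the rest, at 56.5 on the first principal component (56.2% of the variance), against -33.7 to 18.7 for the other 5 arrays. Of 7 corticotrope markers Pomc, Tbx19, Neurod1 and Crhr1 were above background on all 6 arrays, Pcsk1 on 5, and Pitx1 and Avpr1b on 0, while 11 of 12 markers of other pituitary, blood, endothelial, fibroblast and glial cells were above background on 0 arrays and Cga on 1. Precision is limited by there being 6 arrays.

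Doxycycline medium was set against control medium to ask which redox genes changed after 48 h of PAM-1 induction. The aldehyde oxidase gene Aox3, the steroid oxidoreductase gene Akr1c14 and the pentose phosphate epimerase gene Rpe fell in every clone, and no member was called higher. The smallest change called over all tested probes was 1.049 on the log2 scale, so smaller rises may go uncalled. The called members were 3 of 49 tested member probes (6.12%), at an adjusted p under 0.05 in limma's moderated test with clone as a block. Over all 16902 tested probes 0.314% were called, 0.124% as lower and 0.189% as higher. The members were listed with results of these data known, so the 2 shares are a description. Of the 49 probes 12 had an unadjusted p under 0.05, 7 of them higher with doxycycline and 5 lower, and over all probes 22.3% did.

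The sequences upstream of these 3 genes are shown because the genes carry the called changes. No match to the antioxidant response element core, as searched below, lies in these sequences, which does not show that the genes lack an element. The sequences are the 250 bases before the annotated start of each gene in RefSeq on GRCm38.p6, all on the plus strand, for Aox3 at chr1:58112886-58113135, for Akr1c14 at chr13:4059341-4059590 and for Rpe at chr1:66700581-66700830. Capitals mark GC boxes (GGGCGG) and CCAAT boxes (CCAAT), searched on both strands, which do not overlap each other here.
Aox3: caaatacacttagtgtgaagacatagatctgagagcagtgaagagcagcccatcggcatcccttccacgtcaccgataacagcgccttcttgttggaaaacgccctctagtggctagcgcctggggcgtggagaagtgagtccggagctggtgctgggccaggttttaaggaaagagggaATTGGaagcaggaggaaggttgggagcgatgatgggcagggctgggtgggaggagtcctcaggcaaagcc
Akr1c14: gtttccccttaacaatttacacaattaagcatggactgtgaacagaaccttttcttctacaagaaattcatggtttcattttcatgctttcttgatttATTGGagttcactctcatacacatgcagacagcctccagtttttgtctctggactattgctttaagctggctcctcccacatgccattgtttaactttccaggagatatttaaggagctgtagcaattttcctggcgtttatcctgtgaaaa
Rpe: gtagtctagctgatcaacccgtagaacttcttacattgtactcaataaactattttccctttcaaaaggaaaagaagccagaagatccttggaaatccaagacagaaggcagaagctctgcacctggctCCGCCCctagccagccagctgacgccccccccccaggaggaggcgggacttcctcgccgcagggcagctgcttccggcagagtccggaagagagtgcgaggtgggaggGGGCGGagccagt
Rpe holds 2 GC boxes and 10 CG dinucleotides, Aox3 holds 1 CCAAT box and 9 CG dinucleotides, and Akr1c14 holds 1 CCAAT box and 1 CG dinucleotide. Among 32851 RefSeq promoters the same 250 bases hold a GC box in 32.7% and a CCAAT box in 33.8% of cases, with a median of 6 CG dinucleotides.

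Aox3 encodes an aldehyde oxidase, a molybdenum cofactor enzyme that oxidises aldehydes and nitrogen heterocycles. Its probe (ILMN_2640097) read 6.04, 5.95 and 5.60 with doxycycline in clones 14, 6_1 and 6_2, against 8.66, 7.71 and 7.62 in control medium. All control values lay above all doxycycline values. The probe was above background on 0 of 3 doxycycline arrays and 3 of 3 control arrays, so its level with doxycycline has only an upper bound. The size of the change in a single clone cannot be read from it, and in the mean over the 3 clones Aox3 was at least 3.47-fold lower. The test (limma, adjusted p = 0.00822) is of the fitted difference, which uses doxycycline values not above background, and not of this bound. The bound sets the control mean against the higher, on each doxycycline array, of the probe's own value and the lowest value of any probe above background. The probe entered the test through its control arrays alone, so a difference was built into its selection.

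The aldehyde oxidase genes stand side by side in the mouse genome, in the order Aox1, Aox3, Aox4 and Aox2 on chromosome 1. Aox1, also a member, was not tested, since 1 of its probes was above background on 1 array and the other on 0. Aox4, from the list of other aldehyde and molybdenum cofactor genes, read 8.56, 8.62 and 8.86 with doxycycline in clones 14, 6_1 and 6_2, against 9.15, 9.41 and 9.03 in control medium. Its doxycycline values all lay below its control values, but Aox4 did not pass, at -0.52 (SE 0.18; limma, adjusted p = 0.164). Whether these probes also catch transcripts of the neighbouring genes was not tested.

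Akr1c14 encodes an aldo-keto reductase that reduces steroids at the 3-alpha position. It had 2 tested probes, both dim. On the brighter one (ILMN_2655871) it read 6.09, 6.30 and 6.12 with doxycycline in clones 14, 6_1 and 6_2, against 7.54, 7.30 and 7.14 in control medium, a fall of 1.15 on the log2 scale (SE 0.18; limma, adjusted p = 0.0412). This probe was above background on 1 of 3 doxycycline arrays, that of clone 6_1, and on 3 of 3 control arrays, so the fall rests in part on values not above background. Its control arrays alone would have met the filter. The groups did not overlap. The other probe (ILMN_2921215) read 5.89, 5.55 and 5.82 with doxycycline, against 6.83, 6.75 and 6.40 in control medium. It was above background on 0 of 3 doxycycline arrays and was at least 1.38-fold lower, without passing the test (limma, adjusted p = 0.0828). Like the Aox3 probe it was selected through its control arrays alone, so it adds no support. Of 7 other Akr1c genes listed, 1 was measured: Akr1c12 differed by 0.13 (SE 0.17; limma, adjusted p = 0.667), and the rest were above background on 0 arrays. The aldose reductase gene Akr1b3 had no annotated probe and was not analysed here.

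Rpe encodes ribulose-5-phosphate 3-epimerase, which turns ribulose 5-phosphate into xylulose 5-phosphate for transketolase. Its detected probe (ILMN_1255006) read 6.77, 7.30 and 7.31 with doxycycline in clones 14, 6_1 and 6_2, against 7.97, 8.71 and 8.31 in control medium. All doxycycline values lay below all control values, and the 3 clones, in the order above, changed by -1.20, -1.41 and -0.996. The mean of these changes was -1.20 (SE 0.17), or 2.30-fold lower (limma, adjusted p = 0.0348). Unlike Aox3 and Akr1c14, Rpe was above background on all 6 arrays. A further Rpe probe (ILMN_2633770) was above background on 0 arrays, so the change rests on 1 probe. With no clone block the Rpe call ended (limma, adjusted p = 0.126).

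**Figure D1:**
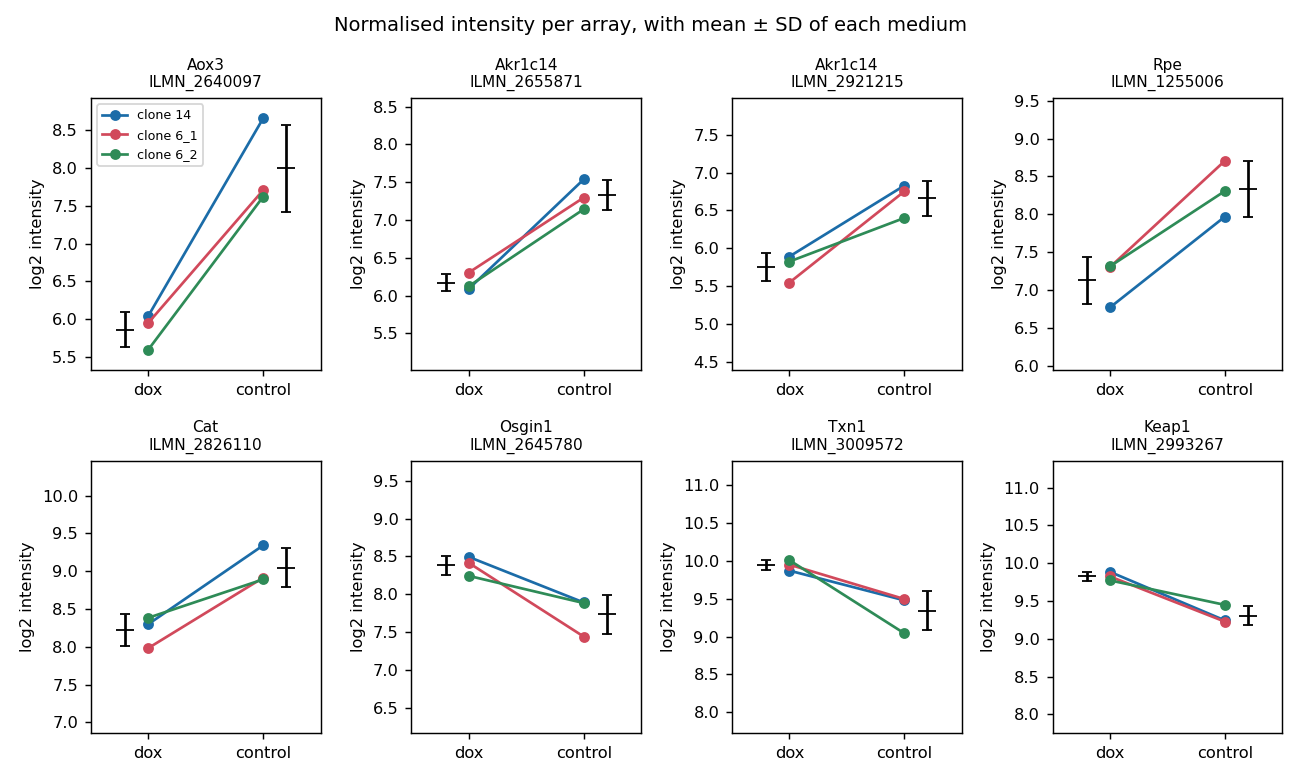
Log2 normalised intensity of 8 probes on each array, with doxycycline (dox) on the left and control medium on the right of each panel. Lines join the arrays of a clone, black marks give mean ± SD of 3 arrays, and each y axis spans the same range. Aox3, Akr1c14, Rpe and Cat lie lower with doxycycline in all 3 clones, and Osgin1, Txn1 and Keap1 lie higher in all 3. The doxycycline points of Aox3 and of Akr1c14 probe ILMN_2921215 are not above background. The same holds for Akr1c14 probe ILMN_2655871 in clones 14 and 6_2, so the slopes of these lines do not size a change.

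No other gene of the pentose phosphate pathway passed. Rpia, the isomerase that takes the same ribulose 5-phosphate to ribose 5-phosphate, read 8.98, 9.41 and 9.07 with doxycycline in clones 14, 6_1 and 6_2, against 9.30, 8.32 and 8.35 in control medium. The groups overlapped, since clone 14 went the other way from clones 6_1 and 6_2, and the difference of 0.50 (SE 0.26) did not pass (limma, adjusted p = 0.280). It depended on the clones: 0.91 without clone 14, which passed (limma, adjusted p = 0.0451), 0.20 without clone 6_1 and 0.39 without clone 6_2, which did not (limma, adjusted p = 0.646 and 0.545). The fits without clone 14 or 6_2 gave all probes a common variance. They called 717 and 400 of all tested probes, against 53 as reported, so a pass there is weak. Transaldolase Taldo1 differed by 0.20 (SE 0.17) and transketolase Tkt by 0.19 (SE 0.20), and neither passed. Tkt was higher with doxycycline in clones 14 and 6_2, by 0.40 and 0.43, and lower in clone 6_1, by -0.27. Me1, the cytosolic malic enzyme that also makes NADPH, read 10.56, 10.59 and 10.73 with doxycycline, against 10.90, 11.14 and 10.88 in control medium. Its groups did not overlap, but the difference of -0.35 (SE 0.17) did not pass (limma, adjusted p = 0.266). Of this role group 1 of 5 tested genes was called. Pgd, the phosphogluconate dehydrogenase, was above background on 0 of 6 arrays, and the glucose-6-phosphate dehydrogenase gene G6pdx had no annotated probe and was not analysed here.

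Catalase and mitochondrial superoxide dismutase differed in opposite directions without passing. Cat, which breaks down hydrogen peroxide in peroxisomes, read 8.30, 7.98 and 8.38 with doxycycline in clones 14, 6_1 and 6_2, against 9.34, 8.91 and 8.89 in control medium. All 3 doxycycline values lay below the control values, at a difference of -0.83 (SE 0.18; limma, adjusted p = 0.0878). Without clone 6_2 the difference was -0.99 and passed (limma, adjusted p = 0.0449), in a fit that gave all probes a common variance. It was -0.72 without clone 14 and -0.78 without clone 6_1, and passed in neither (limma, adjusted p = 0.134 and 0.0762). Sod2, which makes hydrogen peroxide from superoxide in mitochondria, read 11.99, 12.01 and 12.06 with doxycycline, against 11.84, 10.98 and 11.48 in control medium. The groups did not overlap, and the control arrays were spread more widely than the doxycycline arrays. The difference of 0.59 (SE 0.20) did not pass (limma, adjusted p = 0.156). It was 0.81 without clone 14 and 0.37 without clone 6_1, and passed in neither (limma, adjusted p = 0.0839 and 0.223).

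Of the 3 measured regulators of the NRF2 response none passed, and Keap1 differed most. Nfe2l2 read 9.14, 9.08 and 8.99 with doxycycline in clones 14, 6_1 and 6_2, against 9.20, 9.26 and 9.12 in control medium, a difference of -0.12 with a 95% interval of -0.49 to 0.25. Nfe2l1, which encodes a related factor, differed by 0.03 with an interval of -0.34 to 0.41. Keap1 had 4 tested probes, and all 4 gave a positive difference, from 0.32 to 0.52. The brightest (ILMN_2993267) read 9.89, 9.82 and 9.77 with doxycycline in clones 14, 6_1 and 6_2, against 9.24, 9.23 and 9.45 in control medium. Its groups did not overlap, yet no Keap1 probe passed (limma, adjusted p = 0.142 to 0.349). The 4 probes measure 1 gene in the same 6 arrays and are not independent.

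The quinone and heme genes gave no call. Osgin1, an oxidative stress-induced growth inhibitor, read 8.49, 8.41 and 8.24 with doxycycline in clones 14, 6_1 and 6_2, against 7.89, 7.44 and 7.88 in control medium. The groups did not overlap, and the difference of 0.65 (SE 0.18) did not pass (limma, adjusted p = 0.119). Hmox1, the inducible heme oxygenase, read 6.80, 6.89 and 5.60 with doxycycline, against 6.93, 6.05 and 7.04 in control medium. The probe was above background on 5 arrays and not on the doxycycline array of clone 6_2, so no change can be sized in that clone. The changes of -0.12 in clone 14 and 0.84 in clone 6_1 differed in sign, and Hmox1 did not pass (limma, adjusted p = 0.707). Blvrb, a biliverdin reductase, differed by 0.39 (SE 0.25) on its brightest probe, with 1.17 in clone 6_1, 0.01 in clone 6_2 and a value within 0.01 of 0 in clone 14. Its other tested probe gave 0.58 (limma, adjusted p = 0.161). Nqo1, the quinone reductase often read as the marker of NRF2 activity, was above background on 0 of 6 arrays with either of its 2 probes.

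None of the 3 genes of glutathione synthesis passed, and all 3 gave negative differences on their brightest probes. Gclc, the catalytic subunit of glutamate-cysteine ligase that limits glutathione synthesis, read 6.82, 6.32 and 6.71 with doxycycline in clones 14, 6_1 and 6_2, against 6.65, 7.30 and 7.21 in control medium. The groups overlapped and the difference of -0.43 (SE 0.23) did not pass (limma, adjusted p = 0.285). Its modifier subunit Gclm differed by -0.06 (SE 0.21) and glutathione synthetase Gss by -0.06 (SE 0.17), and the other Gss probes gave 0.12 and -0.05. Gss was the 1 gene of 11 with several tested probes whose probes differed in sign. Glutathione reductase Gsr had no annotated probe and was not analysed here.

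All 5 measured glutathione peroxidase and transferase genes gave positive differences on their brightest probes, from 0.03 for Gstm1 to 0.36 for Gpx4, and 0 of 5 passed (limma, lowest adjusted p = 0.275; 0 had an unadjusted p under 0.05). Gpx4, which reduces lipid hydroperoxides, read 12.74, 12.74 and 12.51 with doxycycline in clones 14, 6_1 and 6_2, against 12.59, 11.93 and 12.39 in control medium. Mgst3, a membrane-bound glutathione transferase, read 11.30, 10.83 and 10.68 with doxycycline, against 11.09, 10.14 and 10.51 in control medium, and its other probe gave 0.45 (limma, adjusted p = 0.174). Gstm5, a cytosolic glutathione transferase, read 9.38, 9.33 and 9.21 with doxycycline, against 9.14, 8.72 and 9.04 in control medium. The doxycycline and control arrays overlapped for Gpx4 and Mgst3 and did not for Gstm5. In all 5 genes the control array of clone 6_1 held the lowest value, and their changes in that clone ran from 0.37 for Gstm1 to 0.81 for Gpx4. Without clone 6_1 Gstp1 and Gstm1 changed sign, to -0.13 and -0.14, and Gpx4, Mgst3 and Gstm5 shrank to 0.138, 0.187 and 0.20. Other tested probes gave 0.42 for Gpx4 and 0.18 and 0.39 for Gstp1. Gpx1, Gsta4 and Mgst1 were above background on 0 arrays.

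Thioredoxin and the peroxiredoxins form the other arm of peroxide removal. Txn1, the cytosolic thioredoxin, read 9.87, 9.95 and 10.01 with doxycycline in clones 14, 6_1 and 6_2, against 9.48, 9.50 and 9.04 in control medium. The groups did not overlap, and the difference of 0.61 (SE 0.18) did not pass (limma, adjusted p = 0.131). Txnrd1, which reduces thioredoxin with NADPH, read 8.78, 8.005 and 8.86 with doxycycline, against 8.58, 9.30 and 9.15 in control medium, with a change of -1.30 in clone 6_1 against 0.19 and -0.29 in the other two clones. Its groups overlapped, and the difference of -0.47 (SE 0.26) did not pass (limma, adjusted p = 0.319). The peroxiredoxins Prdx1 to Prdx4 lay between -0.06 and 0.18 on their brightest probes, and Prdx2, Prdx3 and Prdx4 changed sign in some settings. Other tested probes gave 0.10 for Prdx1 and 0.28 and 0.08 for Prdx2. Srxn1, the sulfiredoxin that restores overoxidised peroxiredoxins, gave -0.10, -0.05 and -0.38 on its 3 probes, and none passed (limma, lowest adjusted p = 0.288). Prdx5 and Prdx6 had no annotated probe and were not analysed here. The ferritin chains Fth1 and Ftl1, which store iron, differed by 0.10 (SE 0.16) and 0.18 (SE 0.17), and the other Fth1 probe gave 0.155. Ftl1 read 14.20, 14.13 and 14.26 with doxycycline in clones 14, 6_1 and 6_2, against 14.14, 13.82 and 14.10 in control medium, and neither gene passed.

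**Figure D2:**
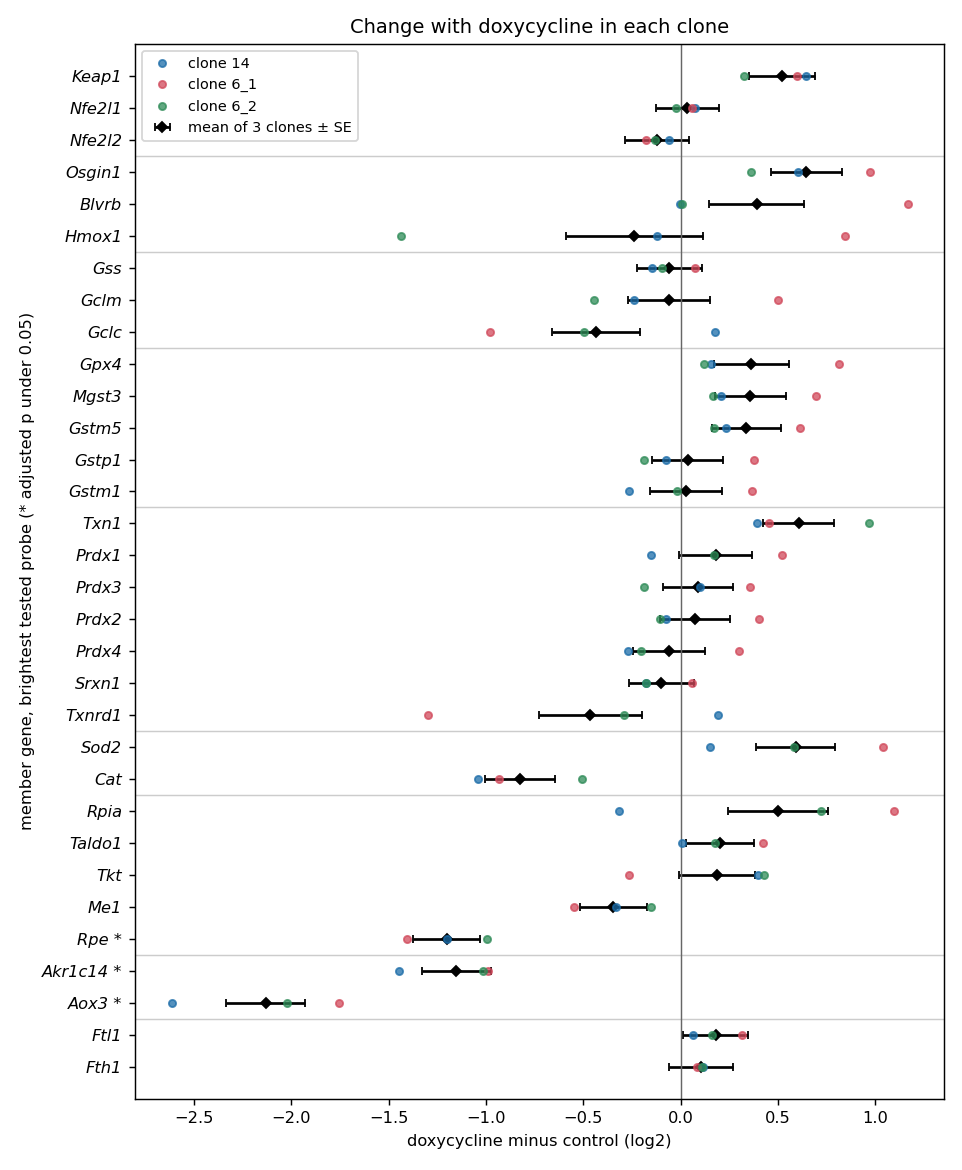
Change with doxycycline, as doxycycline minus control on the log2 scale, for the brightest tested probe of each of 32 members in their role groups. Coloured points are single clones, black diamonds the mean of 3 clones with its SE, and stars mark adjusted p under 0.05; the points of Aox3, of Akr1c14 in clones 14 and 6_2 and of Hmox1 in clone 6_2 use doxycycline values not above background. Aox3, Akr1c14 and Rpe lie furthest to the left with all their points below 0, and in many other rows the point of clone 6_1 lies to the right of the other points.

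Across the 32 measured members 19 gave a positive and 13 a negative difference, with a median of 0.06, against -0.01 over all tested probes. In 10 the sign was positive in all 3 clones and in 6 negative in all 3. Over all tested probes 23.9% were higher and 24.7% lower with doxycycline in every clone. The doxycycline arrays lay wholly above the control arrays in 5 members (15.6%) and wholly below them in 5 (15.6%), near the 12.1% and 12.5% of all tested probes. By clone, the members' median change came to 0.36 in clone 6_1, against -0.03 in clone 14 and -0.06 in clone 6_2. The control array of clone 6_1 held the lowest of the 6 values in 18 of the 32 members (56.2%) and the highest in 6 (18.8%), whereas over all tested probes it was lowest in 31.0% and highest in 31.0%. This was not particular to the members. In 56 other measured redox and pentose phosphate genes, described below, it was lowest in 55.4% and highest in 17.9%. In 18 measured aldehyde and molybdenum cofactor enzymes it was lowest in 38.9% and highest in 22.2%. Without clone 6_1 the median of the members was -0.05. Rpe also passed without clone 6_1, at -1.10 (limma, adjusted p = 0.0341). Akr1c14 passed there at a fitted -1.23 (limma, adjusted p = 0.0341), but no doxycycline array above background is then left for it. Its control arrays alone could meet the filter, so this pass adds no support. Aox3 passed there too (limma, adjusted p = 0.0076), with the same limits of a level below background with doxycycline and a selection through the control arrays. Without clone 6_1 Blvrb stood at 0.003, Txnrd1 at -0.048 and Gclc at -0.161. The part of that array in the members' differences was not tested.

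**Figure D3:**
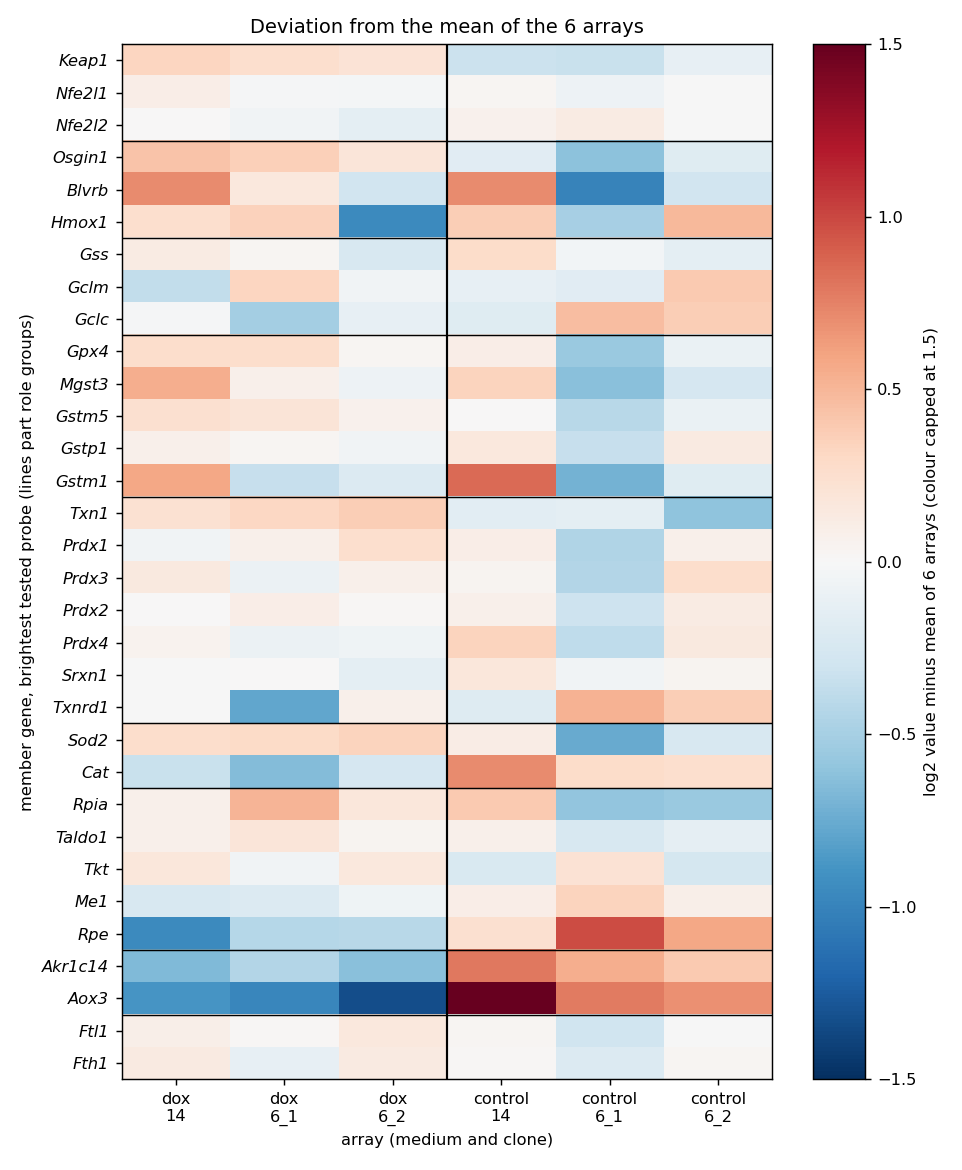
Colour map of the 32 measured members, each row showing the log2 value on an array minus the mean of the 6 arrays, with doxycycline arrays left and control arrays right of the black line. The control array of clone 6_1 is the bluest column in the glutathione transferase and peroxiredoxin rows, and Aox3, Akr1c14, Rpe and Cat turn from blue with doxycycline to red in control medium. The doxycycline colours of Aox3, of Akr1c14 in clones 14 and 6_2 and of Hmox1 in clone 6_2 show values not above background.

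The antioxidant response element gave a view of the members that did not use the arrays. Its core was searched as TGACNNNGC, on both strands, in RefSeq promoters of 250 bases before to 50 after the start. Promoters were found for 37 of the 43 genes, as 52 windows, and 10 genes held a core in 1 window each, which is 19.2% of the windows, against 12.4% of all 32851 promoters. Of these 10, the 7 measured on the arrays are shown with 10 bases on either side of the core, as read on the strand of the gene, with the core in capitals. A core that starts with GC lies on the opposite strand.
Gclm: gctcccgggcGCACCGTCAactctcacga
Gstm5: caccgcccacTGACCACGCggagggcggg
Me1: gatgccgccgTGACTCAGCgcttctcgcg
Nfe2l2: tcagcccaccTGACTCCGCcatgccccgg
Prdx1: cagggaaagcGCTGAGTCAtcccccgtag
Srxn1: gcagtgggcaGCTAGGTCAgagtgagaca
Txnrd1: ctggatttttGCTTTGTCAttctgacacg
These sites lie on GRCm38.p6 at chr3:122245413-122245441 (plus strand) for Gclm, chr3:107895802-107895830 (plus strand) for Gstm5, chr9:86695902-86695930 (minus strand) for Me1, chr2:75704885-75704913 (minus strand) for Nfe2l2, chr4:116685456-116685484 (plus strand) for Prdx1, chr2:152105542-152105570 (plus strand) for Srxn1 and chr10:82859104-82859132 (plus strand) for Txnrd1. Among the 7 genes 2 gave a positive and 5 a negative difference with doxycycline, from -0.47 for Txnrd1 to 0.34 for Gstm5, with a median of -0.10. None of the 7 passed (limma, lowest adjusted p = 0.266; 0 had an unadjusted p under 0.05). The 23 measured members whose promoters hold no core had a median of 0.10, and they include the 3 that fell. No promoter was found for the measured members Gclc and Hmox1, both with negative fitted differences, so neither median includes them. A match of these letters describes the window and does not show binding. A window without a match may belong to a gene with an element elsewhere or in other letters, and control of these genes by NRF2 was not tested.

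Other genes of the same pathways were taken from 2 further lists. Of 78 other redox and pentose phosphate genes 56 were measured, and 0 passed (limma, lowest adjusted p = 0.0955; 10 had an unadjusted p under 0.05), with a median of 0.16. The 4 of smallest p were the quinone reductase Nqo2 at 0.72 (SE 0.17), the cystine transporter Slc7a11 at -0.68 (SE 0.17), the carbonyl reductase Cbr1 at 0.70 (SE 0.20) and the NADPH-producing isocitrate dehydrogenase Idh1 at -0.69 (SE 0.21). Nqo2 read 8.36, 8.01 and 7.81 with doxycycline in clones 14, 6_1 and 6_2, against 7.57, 7.41 and 7.05 in control medium. Slc7a11, which brings in cystine for glutathione and is known as an NRF2 target, read 7.33, 7.70 and 7.57 with doxycycline, against 8.15, 8.40 and 8.11 in control medium. The groups did not overlap in either gene. The other tested probes gave smaller differences, 0.35 and 0.50 for Nqo2 and -0.18 for Slc7a11. Of 37 aldehyde and molybdenum cofactor enzymes 18 were measured and 0 passed (limma, lowest adjusted p = 0.122; 5 had an unadjusted p under 0.05). The 4 of smallest p were Hsd17b10 at 0.66 (SE 0.19), Aldh6a1 at -0.60 (SE 0.20), Aldh3a2 at -0.48 (SE 0.17) and Aox4, given above.

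The clones were compared with one another, to see which members differed between clones over doxycycline and control arrays together. Clone 14 had higher values of Blvrb, Gstm1 and Mgst3 than clones 6_1 and 6_2 on every array, but no member passed in any of the 3 comparisons. Over all tested probes 0.136% were called between clones 14 and 6_1, 0.142% between clones 14 and 6_2 and 0.0% between clones 6_1 and 6_2. Of the 49 member probes 7, 7 and 1 had an unadjusted p under 0.05 in these comparisons, against 15.6%, 10.7% and 2.67% of all tested probes.

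Gstm1, a glutathione transferase, read 8.56 with doxycycline and 8.83 in control medium in clone 14, against 7.64 and 7.27 in clone 6_1 and 7.77 and 7.79 in clone 6_2. Clone 14 stood higher than clone 6_1 by 1.24 (SE 0.23; limma, adjusted p = 0.0867) and higher than clone 6_2 by 0.91 (SE 0.23; limma, adjusted p = 0.207). Blvrb read 12.17 with doxycycline and 12.17 in control medium in clone 14, against 11.63 and 10.46 in clone 6_1 and 11.18 and 11.17 in clone 6_2. Its differences from clone 14 were 1.13 and 1.00 (SE 0.30 each) on this probe and 1.18 and 1.02 (SE 0.25 each) on the other, and none passed (limma, lowest adjusted p = 0.108). Mgst3 was higher in clone 14 by 0.72 and 0.61 (SE 0.22 each) on its brightest probe. Under median scaling Gstm1, both Blvrb probes and 1 Mgst3 probe passed between clones 14 and 6_1. Without clone 6_1 Gstm1 and both probes each of Blvrb and Mgst3 passed between clones 14 and 6_2. Without clone 6_2 Gstm1 and both Blvrb probes passed between clones 14 and 6_1, in a fit that gave all probes a common variance. Aox3 was higher in clone 14 by 0.52 than in clone 6_1 and by 0.74 than in clone 6_2 (SE 0.25 each; limma, adjusted p = 0.351 and 0.316). Rpe ran the other way, lower in clone 14 than in clone 6_1 by -0.64 (SE 0.21), also without passing (limma, adjusted p = 0.215).

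**Figure D4:**
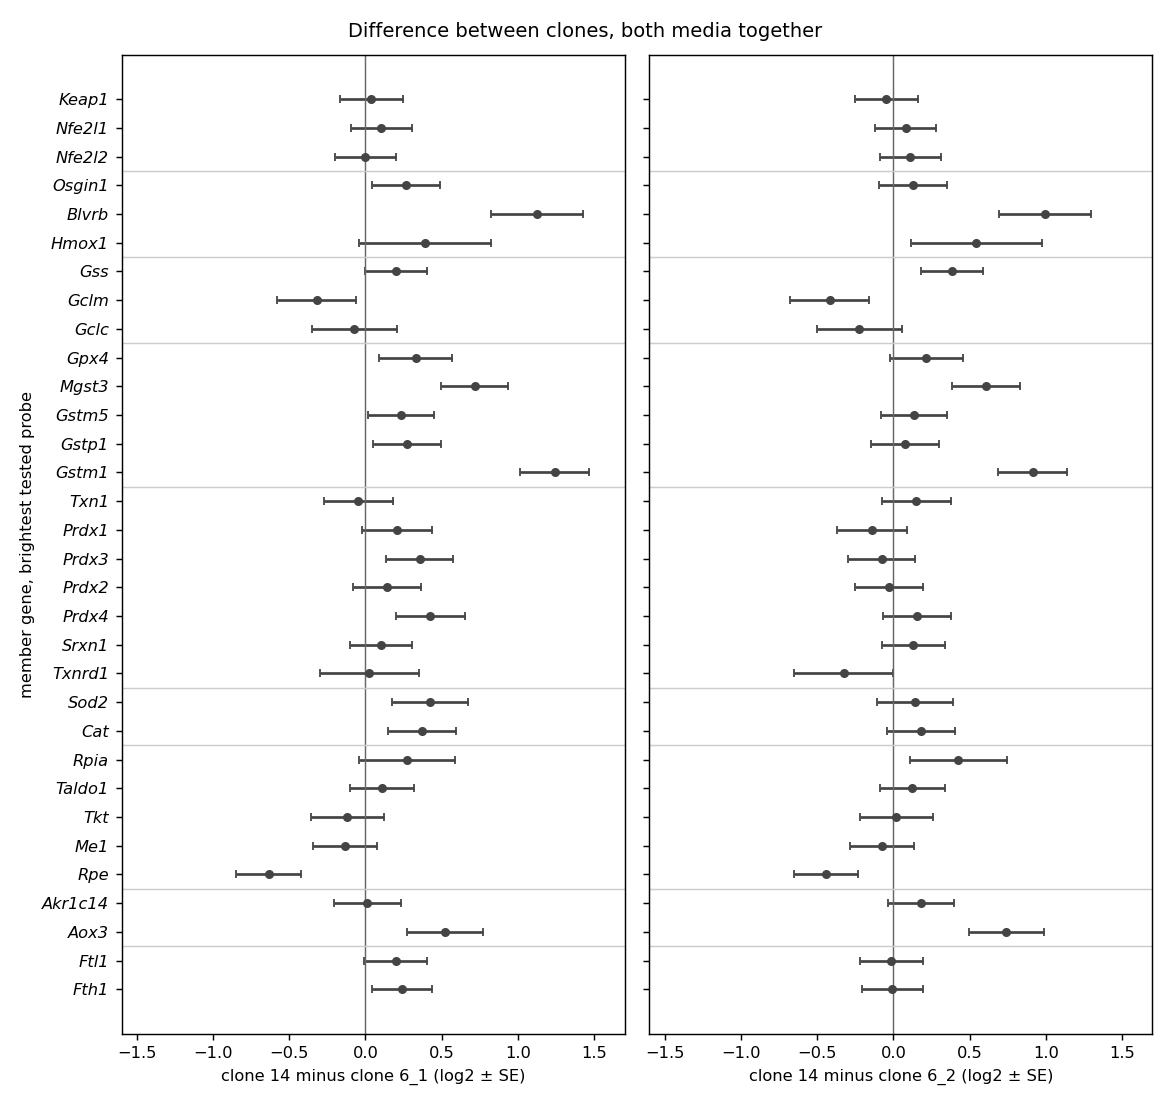
Differences between clones over both media, on the log2 scale with SE, for the brightest tested probe of 32 members, with clone 14 minus clone 6_1 on the left and clone 14 minus clone 6_2 on the right. Gstm1 and Blvrb lie furthest to the right in both panels, followed by Mgst3 on the left and by Aox3 and then Mgst3 on the right, and Rpe lies furthest to the left in both.

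The calls were followed through each change of processing. The fall of Aox3 passed in every setting that tested it except with no filter on dim probes. There Aox3, Rpe and Akr1c14 did not pass (limma, adjusted p = 0.220 for each). Every setting in which Aox3 or Akr1c14 passed kept a filter that the control arrays of its probe alone could meet. These passes therefore add no support for Aox3 or Akr1c14. Akr1c14 and Rpe lost their calls without background correction, at -0.58 and -0.80 (limma, adjusted p = 0.0761 and 0.0551), and on the authors' processed values, at -0.60 and -0.81 (limma, adjusted p = 0.0724 and 0.0507). Those values keep the background signal, and the changes of dim probes are smaller in them, with a fitted value of -1.17 for Aox3, which is no bound. Cat did not pass in any setting other than the one without clone 6_2, where all probes shared a common variance.

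**Figure D5:**
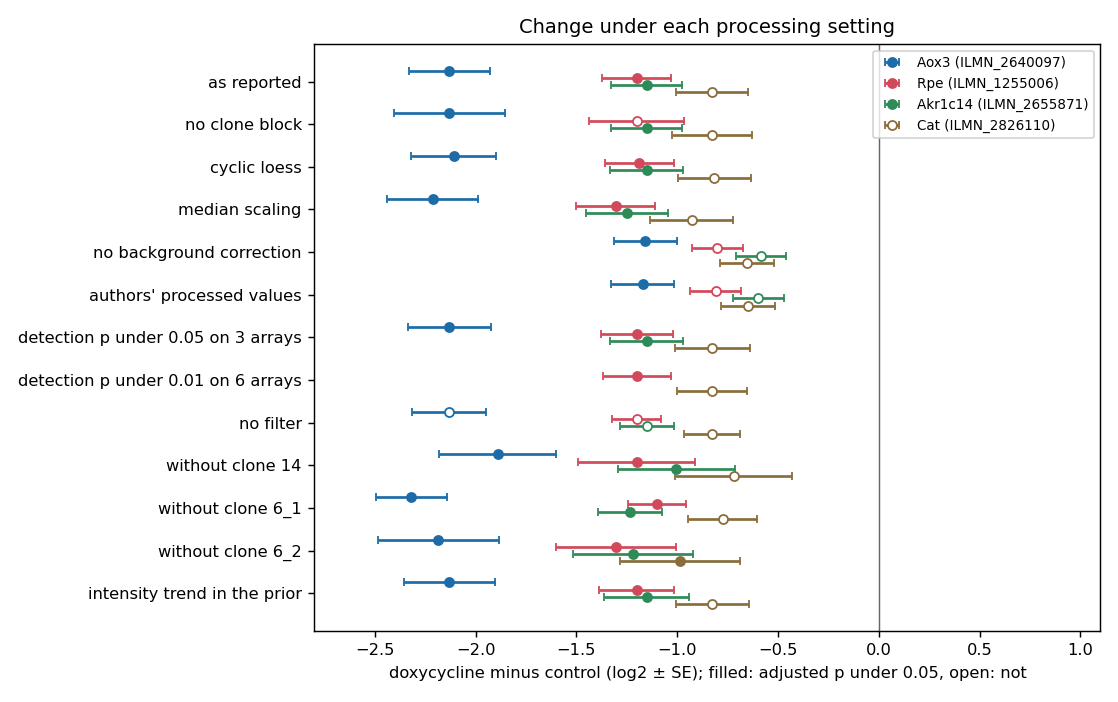
Change with doxycycline on the log2 scale, with SE, for Aox3, Rpe, Akr1c14 and Cat as reported and under each other setting. Filled points have an adjusted p under 0.05 and open points do not, and Aox3 and Akr1c14 have no point where probes had to be above background on all 6 arrays. Every point lies below 0, and those of Aox3 and, in part, of Akr1c14 rest on doxycycline values not above background.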

How the data were processed

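Total RNA was labelled with biotin, per the labels' protocols, and hybridised to Illumina bead arrays of type MouseWG-6 v2.0, per the series' design text. The deposited table holds a scanner intensity per probe and array, not normalised, per the file headers, and its lowest values, well above 0, still hold the background. Each deposited intensity is followed by its detection p-value. The submitters' processing notes name GenomeStudio and BeadStudio. The authors' processed intensity values, whose normalisation the sources used here do not give, served as an alternative.

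With limma 3.58.1 in R 4.3.3, normexp background correction from the detection p-values with an offset of 16, quantile normalisation and log2 were applied. The offset shrinks changes of dim probes. Medium and clone were fitted with lmFit and eBayes to 16902 of 45281 probes (detection p under 0.01 on at least 3 arrays), two-sided, with Benjamini-Hochberg adjustment over all of them and a threshold of 0.05. The fit was tested on simulated data. The block follows from the treatment protocol, by which every clone went into both media. Deviations from the group means correlated at 0.538, -0.0211 and 0.139 between the arrays of clones 14, 6_1 and 6_2. Crossed pairs of clones 6_1 and 6_2 correlated more, at 0.426 (6_2 with doxycycline, 6_1 in control medium) and 0.229 (the reverse). The other unlike pairs ran from -0.538 to -0.126. The values do not bear out the pairing of clones 6_1 and 6_2, which rests on the labels.

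Gene symbols came from the platform annotation, and all 72 member probes matched the GRCm38.p6 RefSeq table by Entrez number, with 0 symbols changed. Members and gene lists were chosen with earlier results of these data known. Values per array are given for called members, the 12 members of smallest p, the 8 largest called differences between clones (0 were called) and the largest change in each direction of each role group. Blvrb, and Gstm1 and Mgst3 in the comparison of clones, were named after their values were seen. Members whose probes were not annotated are not analysed here.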

Additional observations from a re-analysis of the deposited data

How the results depend on the processing

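With 3 clones and 1 culture each, the tests rest on 2 residual degrees of freedom and on limma's prior, and signal over background limits what can be said of Aox3 and Akr1c14. Over all probes 53 were called, 32 as higher and 21 as lower. This was 33 with no replicate block, 165 with median scaling (75 higher, 90 lower), 144 with an intensity trend in the prior, 1 with no filter and 78 to 717 with 1 clone left out (78 without clone 6_1, 400 without 6_2, 717 without 14). In the fits without clone 14 or 6_2 the prior gave all probes a common variance. Of the member probes 3 were called. The count was 1 without background correction, on the authors' processed values, or with detection on all 6 arrays, which leaves Aox3 and Akr1c14 untested. It was 0 with no filter (limma; 17 had an unadjusted p under 0.05) and 3 to 5 with 1 clone left out. Without the replicate block it was 2, and Rpe was the call that ended. Between clones 14 and 6_1 the count of member probes was 0, with 4 under median scaling and 3 without clone 6_2. Between clones 14 and 6_2 it was 0, with 5 without clone 6_1. Of 381 values of 32 members under the other settings 359 kept their direction and side of the threshold. The signs of Gstm1 and Prdx4 turned with median scaling, to -0.075 and 0.139, and that of Prdx4 with cyclic loess, to 0.017. With 1 clone left out, Gclm ran from -0.341 to 0.130 (without clones 6_1 and 6_2), Gstm1 from -0.143 to 0.173 (6_1 and 14), Gstp1 from -0.133 to 0.15, Prdx2 from -0.091 to 0.164 and Prdx3 from -0.045 to 0.229 (6_1 and 6_2 for all 3), Hmox1 from -0.780 to 0.359 (6_1 and 6_2) and Prdx4 from -0.238 to 0.047 (6_1 and 14). Without clone 14 Gclm also turned, to 0.028, as did Prdx4 without clone 6_2, to 0.014. The cause of these turns was not tested, and none of these genes passed as reported.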
